A study of Homo sapiens with 6 samples.

Results

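The mRNA levels of 10 genes of the epithelial-mesenchymal transition (EMT) were examined in BxPC-3, an established human pancreatic cancer cell line with epithelial growth. The genes were chosen by symbol: the EMT transcription factors ZEB1, ZEB2, SNAI1, SNAI2 and TWIST1, the mesenchymal markers VIM, FN1 and CDH2, and the epithelial regulators ESRP1 and GRHL2. All 10 were found among the 26255 symbols of each file. RNA-seq had been done on 6 libraries in 3 groups of 2: untreated cells (Parent), cells treated with a negative control duplex (NC-1) and cells treated with miR-4711-5p, a synthetic microRNA, with RNA taken at 36 h. All groups are the same cell line, grown without other cell types, so they model cultured tumor cells and not a tumor. The values are FPKM, which scale the fragments of a gene to its exon length and to library size, so levels are per length and can be set side by side between genes.

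EMT is a program in which epithelial cells loosen their junctions and take on features of migrating mesenchymal cells, and it is studied in pancreatic cancer for its part in invasion. Factors of the Snail, ZEB and Twist families repress E-cadherin (CDH1) and other epithelial genes, while GRHL2 and the splicing regulators ESRP1 and ESRP2 maintain the epithelial state. A microRNA lowers transcripts mainly by pairing its seed, bases 2 to 8, with sites in their 3′ untranslated regions (UTRs), and the miR-200 family is known for repressing ZEB1 and ZEB2 in this way.

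The seed of miR-4711-5p differs from those of the miR-200 family, as the mature sequences show (RefSeq, GRCh38.p14, 5′ to 3′, seed in capitals). Of 2370 mature human microRNAs in that table, 1 had the seed of miR-4711-5p, namely miR-4711-5p itself, whereas 3 shared the seed of miR-200c-3p and 2 that of miR-141-3p.
hsa-miR-4711-5p: uGCAUCAGgccagaagacaugag
hsa-miR-200c-3p: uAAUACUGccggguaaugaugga
hsa-miR-141-3p: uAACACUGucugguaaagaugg

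Sites for miR-4711-5p were searched on the mRNA strand (hg19), using for every gene the longest 3′ UTR in the annotation. The letters CTGATGC pair with bases 2 to 8. A further form, TGATGCA, pairs with bases 2 to 7 and has an A after them, and CTGATGCA holds both forms. Of the 10 genes, 3 held a site, namely ESRP1, GRHL2 and ZEB2, against 18.4% of 11186 genes tested for expression that had a 3′ UTR. ZEB1, ZEB2, SNAI1 and TWIST1 were not tested for expression, so they are not among these 11186 genes. ESRP1 had the 8-base site at base 1056 of its 1577-base 3′ UTR and CTGATGC at base 1077. GRHL2 had CTGATGC at base 818 of 3023. The site of ZEB2 was TGATGCA at chr2:145146433-145146439 on the minus strand, shown here with its flanks and the site in capitals.
ZEB2: ggaacttgaagTGATGCAtgtgtgaattt
A match is a description of letters and not a measured site, and nothing about pairing follows from it. The 3′ UTRs of ZEB1, SNAI1, SNAI2, TWIST1, VIM, FN1 and CDH2 held none of these letters in this window.

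The libraries matched their label as BxPC-3 epithelial cells. In all 6, SMAD4 and CDKN2A, which this line is known to lack, were listed at 0 FPKM, and 7 of 8 pancreatic ductal markers were at 1 FPKM or more, with CFTR the exception. The summed FPKM of 10 fibroblast and pericyte markers lay between 2.37 and 3.10 in Parent, 3.0 and 3.75 in NC-1, and 3.26 and 3.37 with miR-4711-5p, and only COL1A1 reached 1 FPKM. Endothelial markers summed to 1.47 to 1.62, 3.41 to 3.64 and 0.673 to 0.887 FPKM, respectively, most of it CDH5, which was at 3.16 and 2.88 FPKM in NC-1 against 0.995 and 0.929 in Parent. Without CDH5 the sums were 0.537 to 0.629, 0.480 to 0.532 and 0.204 to 0.275 FPKM. Leukocyte markers summed to between 14.0 and 18.0 FPKM in all libraries, most of it CD68 at 11.3 to 15.3 FPKM, with PTPRC at or below 0.0253 FPKM. The number of reads per library is unknown, and steps between low values gave depths of 0.751 to 1.21 relative to the first Parent library. Each depth rests on the most frequent ratio to that library among genes with low values, which only 19.1% to 35.9% of them shared. The labels do not say whether libraries of a group came from separate cultures, so p-values measure only the spread between these libraries, which may be technical.

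The genes covered a wide range of levels. In Parent, the order by mean FPKM was ESRP1, SNAI2, GRHL2, VIM, FN1, CDH2, SNAI1, ZEB1, ZEB2 and TWIST1, and no neighbours in this order overlapped between their 2 libraries. The order was the same in NC-1. With miR-4711-5p, SNAI2 (34.6 ± 1.95 FPKM, SD, n = 2) stood above ESRP1 (31.6 ± 1.11 FPKM, n = 2), and the libraries of GRHL2 and VIM overlapped. As the panels of FPKM by library show, 6 genes averaged 1 FPKM or more across the libraries and were tested, while ZEB1, ZEB2, SNAI1 and TWIST1 were below and are given by their values.

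**Figure D1:**
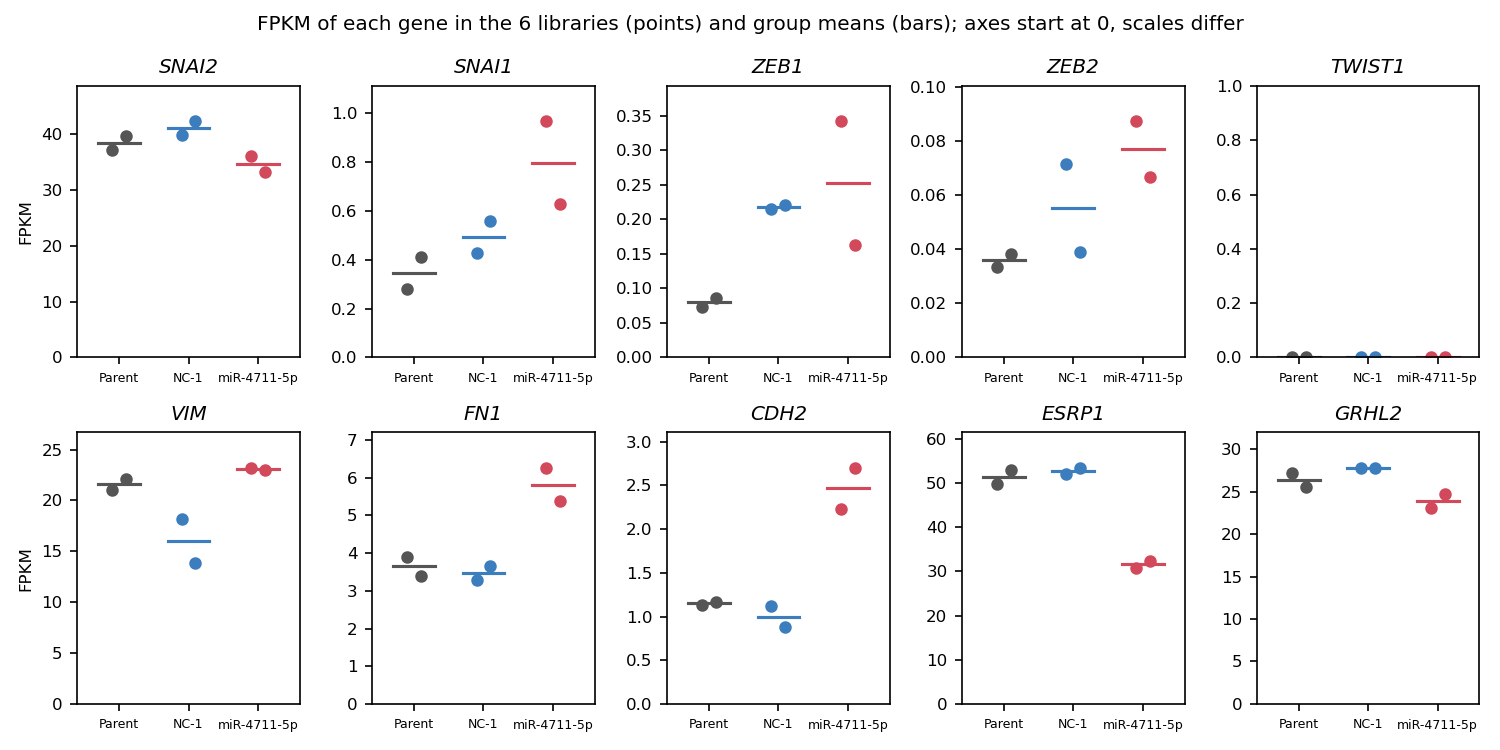
FPKM (vertical axes, each from 0 with its own scale) of the 10 genes in the 2 libraries of each group (points), with the group mean (bar). The miR-4711-5p libraries lie above all 4 control libraries for FN1 and CDH2 and below them for ESRP1, and TWIST1 is listed at 0 in all 6.

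Expression was compared with limma on log2(FPKM + 1), adjusted by Benjamini-Hochberg over 12040 genes. A large part of the transcriptome differed between groups: for miR-4711-5p, 43.4% of genes tested were called against Parent and 39.6% against NC-1. Between NC-1 and Parent 27.2% were called. With miR-4711-5p, 25.5% were called against both controls in the same direction, 10% higher and 15.4% lower. Of the 6 tested EMT genes, 3 were called against Parent (FN1 and CDH2 higher, ESRP1 lower), 6 against NC-1 (FN1, CDH2 and VIM higher, ESRP1, SNAI2 and GRHL2 lower) and 1 between NC-1 and Parent (VIM lower in NC-1). The share called against Parent is near that of all genes. By direction, 18.7% of all genes were higher and 24.7% lower than in Parent, and 18.4% and 21.2% than in NC-1. Higher genes were thus 43.1% of the calls against Parent and 46.5% of those against NC-1, and with the libraries set to equal sums of FPKM they were 69.3% and 58.4%. Both comparisons of miR-4711-5p share its 2 libraries.

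Among the EMT transcription factors, SNAI2 (SLUG, a repressor of E-cadherin; chr8:49830157-49834299) was the one expressed at a substantial level. Its FPKM were 37.2 and 39.7 in Parent, 39.8 and 42.3 in NC-1, and 36.0 and 33.2 with miR-4711-5p. Both treated libraries were below all 4 controls, by a small margin to the lower Parent library. SNAI2 made up between 96.3% and 99.0% of the summed FPKM of the 5 factors in every library.

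The log2 fold change of SNAI2 was -0.24 ± 0.06 (SE) against NC-1 (limma adjusted p = 0.0196), with a mean 1.18 times lower. Against Parent it was -0.15 with an unadjusted 95% interval of -0.29 to -0.0023, and this did not pass (adjusted p = 0.0922). The call against NC-1 was lost without the second NC-1 library (adjusted p = 0.0956), without the second miR-4711-5p library (adjusted p = 0.126) and when the libraries were set to equal sums of FPKM (-0.18, adjusted p = 0.0597). On the last scale the difference from Parent was -0.01.

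SNAI1 (SNAIL; chr20:48599517-48605423), the paralog of SNAI2, stayed under 1 FPKM. Its values were 0.280 and 0.412 FPKM in Parent, 0.426 and 0.560 in NC-1, and 0.966 and 0.629 with miR-4711-5p. The treated libraries were the highest of the 6, and they also differed most from each other. In a limma fit of all 19158 genes without a filter, SNAI1 differed by 0.41 from Parent (adjusted p = 0.0540) and by 0.26 from NC-1 (adjusted p = 0.173).

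ZEB1 (chr10:31607424-31818742), a repressor of epithelial genes and of the miR-200 family, was at 0.0735 and 0.0863 FPKM in Parent, 0.215 and 0.22 in NC-1, and 0.342 and 0.163 with miR-4711-5p. The treated libraries lay on both sides of the NC-1 libraries, and both transfected groups were above Parent. In the unfiltered fit the difference was 0.21 from Parent (limma adjusted p = 0.0955), 0.04 from NC-1 (adjusted p = 0.773) and 0.17 between NC-1 and Parent (adjusted p = 0.192). ZEB1 shares 396 exon bases with the antisense gene ZEB1-AS1, which was listed at 0.171 to 0.644 FPKM, and since the strand setting of the counting is not given in the sources used here, their reads cannot be told apart.

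ZEB2 (chr2:145121931-145278624), the related factor that held the site printed above, was at 0.0335 and 0.0384 FPKM in Parent, 0.0714 and 0.0391 in NC-1, and 0.0872 and 0.0666 with miR-4711-5p. The treated and NC-1 libraries overlapped. Its differences in the unfiltered fit were 0.06 from Parent (limma adjusted p = 0.261) and 0.03 from NC-1 (adjusted p = 0.562). TWIST1, a basic helix-loop-helix factor of the same program, was listed at 0 FPKM in all 6 libraries. No difference of ZEB1 or ZEB2 passed the threshold in this fit, and TWIST1 gave no value.

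Of the 3 mesenchymal markers, CDH2 (N-cadherin, the adhesion molecule of neural and mesenchymal cells; chr18:25512843-25757910) showed the largest difference. CDH2 was at 1.14 and 1.17 FPKM in Parent, 1.12 and 0.882 in NC-1, and 2.23 and 2.70 with miR-4711-5p. The treated libraries did not overlap the controls, although all values were low. The mean rose 2.14-fold against Parent and 2.47-fold against NC-1.

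On the log2(FPKM + 1) scale, which understates changes of low genes, CDH2 rose by 0.68 ± 0.12 (SE) against Parent (limma adjusted p = 0.00426) and by 0.79 ± 0.12 against NC-1 (adjusted p = 0.00250). With a pseudocount of 0.1 the values were 1.03 and 1.23. CDH2 ranked 401 of 12040 genes from the highest change against Parent and 226 against NC-1. NC-1 and Parent differed by -0.11, with a 95% interval of -0.40 to 0.18 (adjusted p = 0.548).

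FN1 (fibronectin, a secreted glycoprotein of the extracellular matrix; chr2:216225163-216300796) was at 3.91 and 3.40 FPKM in Parent, 3.28 and 3.67 in NC-1, and 6.26 and 5.38 with miR-4711-5p. Both treated libraries were above all controls. FN1 rose 1.59-fold against Parent and 1.67-fold against NC-1, by 0.55 ± 0.10 and 0.61 ± 0.10 on the log2 scale (limma adjusted p = 0.00435 and 0.00320). NC-1 and Parent differed by -0.06, with a 95% interval of -0.29 to 0.18.

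VIM (vimentin, the intermediate filament protein of mesenchymal cells; chr10:17270240-17279592) was at 21.0 and 22.1 FPKM in Parent, 18.2 and 13.8 in NC-1, and 23.2 and 23.0 with miR-4711-5p. Here the NC-1 libraries were low and also spread the most (16.0 ± 3.08 FPKM, n = 2), while the treated libraries lay just above Parent. The difference of miR-4711-5p from Parent was 0.09, with a 95% interval of -0.17 to 0.35 (limma adjusted p = 0.527).

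Against NC-1, VIM rose by 0.52 ± 0.11 on the log2 scale, a 1.44-fold higher mean (limma adjusted p = 0.00936). Between NC-1 and Parent it fell by 0.42 (adjusted p = 0.0303). The first call was lost without the first miR-4711-5p library (adjusted p = 0.0562) or the second (adjusted p = 0.0546), and without the second NC-1 library the value was 0.33. The second call was lost without either Parent library (adjusted p = 0.102 and 0.126) or the second NC-1 library (-0.24, adjusted p = 0.0541), and on equal sums of FPKM (-0.34, adjusted p = 0.0602). VIM-AS1, an antisense gene with 656 exon bases in common with VIM, was listed at 0.557 to 0.610 FPKM in the 4 control libraries and at 1.07 and 0.954 with miR-4711-5p. Its reads cannot be told apart from those of VIM.

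**Figure D2:**
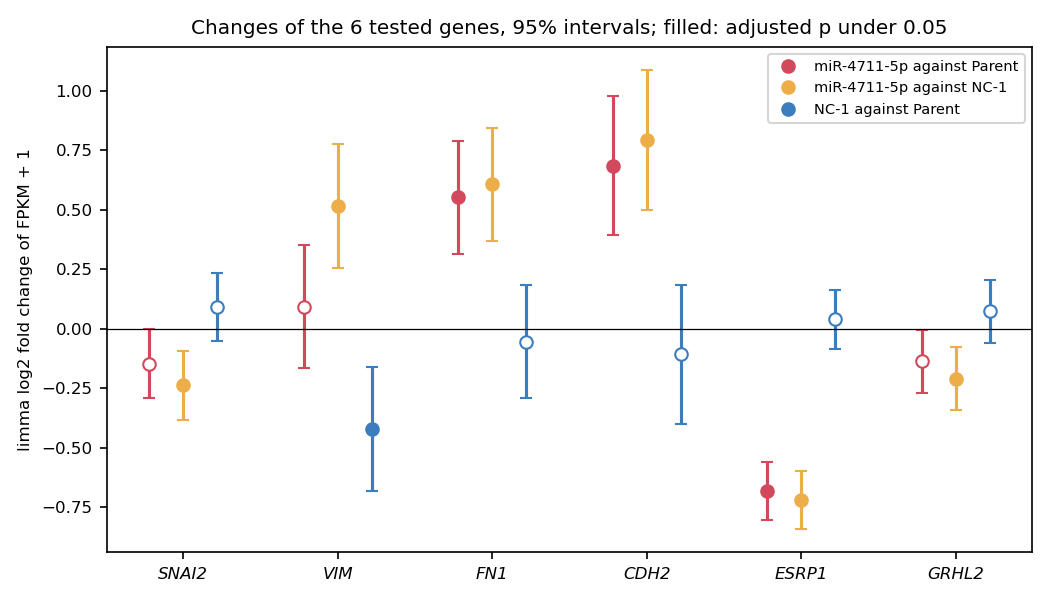
Change of the 6 tested genes in each of the 3 comparisons, as limma log2 fold change of FPKM + 1 (vertical axis) with unadjusted 95% intervals, filled where the adjusted p was under 0.05. FN1, CDH2 and ESRP1 changed against both controls, and VIM differed from NC-1 but not from Parent by this test.

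ESRP1 (chr8:95653302-95719694), an RNA-binding protein that sets epithelial splice forms of genes such as FGFR2 and CD44, had the strongest decrease. Its FPKM were 49.8 and 52.9 in Parent, 52.0 and 53.5 in NC-1, and 30.8 and 32.4 with miR-4711-5p. The highest treated library was far below the lowest control. ESRP1 fell by 0.68 ± 0.05 (SE) on the log2 scale against Parent (limma adjusted p = 8.23e-05) and by 0.72 ± 0.05 against NC-1 (adjusted p = 7.58e-05), with means 1.62 and 1.67 times lower.

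ESRP1 ranked 462 of 12040 genes from the strongest decrease against Parent and 387 against NC-1. NC-1 and Parent differed by 0.04, with a 95% interval of -0.08 to 0.16. On equal sums of FPKM the decrease against Parent was -0.55 (limma adjusted p = 0.000283). ESRP1 was the only member with more than 1 site for miR-4711-5p in its 3′ UTR.

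Its paralog ESRP2, which acts on many of the same transcripts, was at 18.5 and 19.6 FPKM in Parent, 24.3 and 22.6 in NC-1, and 18.4 and 18.7 with miR-4711-5p. ESRP2 differed by -0.04 from Parent (limma adjusted p = 0.599), and fell by 0.32 against NC-1 (adjusted p = 0.00405), which itself was 0.28 above Parent (adjusted p = 0.0124). The ratio of ESRP1 to ESRP2 was 2.68 and 2.69 in Parent, 2.14 and 2.36 in NC-1, and 1.67 and 1.74 with miR-4711-5p. The summed FPKM of both was 68.3 and 72.5, 76.2 and 76.1, and 49.2 and 51.0, respectively.

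GRHL2 (grainyhead-like 2, a transcription factor that activates E-cadherin and claudin genes; chr8:102504667-102681954) was at 27.2 and 25.5 FPKM in Parent, 27.8 and 27.7 in NC-1, and 23.0 and 24.7 with miR-4711-5p. Both treated libraries were below all controls, by less than 1 FPKM for the nearest pair. GRHL2 fell by 0.21 ± 0.06 (SE) against NC-1 (limma adjusted p = 0.0229), with a mean 1.16 times lower. Against Parent the value was -0.14, with an unadjusted 95% interval of -0.27 to -0.0046 (adjusted p = 0.0876).

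The call of GRHL2 against NC-1 was lost without the first NC-1 library (limma adjusted p = 0.0819), the second NC-1 library (adjusted p = 0.0761) or the first miR-4711-5p library (-0.16, adjusted p = 0.144). On equal sums of FPKM the difference from Parent was -0.0033. The related factors GRHL1, at 1.61 to 2.23 FPKM in the 6 libraries, and GRHL3, at 1.35 to 2.33 FPKM, were not called in any of the 3 comparisons.

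**Figure D3:**
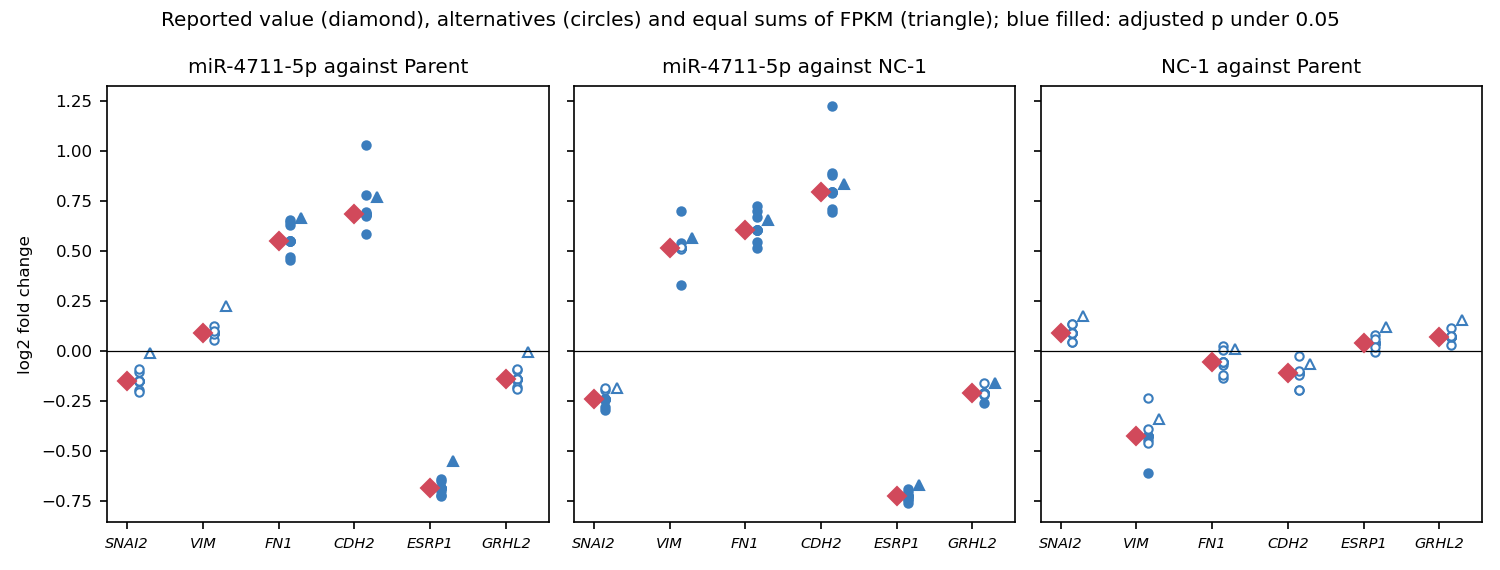
Log2 fold change (vertical axis) of the 6 tested genes as reported (diamonds), under the other alternatives (circles) and on equal sums of FPKM (triangles), blue filled where the adjusted p was under 0.05. The values of FN1, CDH2 and ESRP1 stay filled against both controls, and SNAI2, VIM and GRHL2 have open symbols against NC-1.

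The cadherins were set side by side because a change from E-cadherin to N-cadherin is the classic readout of EMT. CDH1 was at 114 and 117 FPKM in Parent, at 109.4 and 109.6 in NC-1, and at 28.3 and 30.9 with miR-4711-5p. In percent of CDH1, CDH2 was 0.995 and 1.0 in Parent, 1.02 and 0.805 in NC-1, and 7.89 and 8.75 with miR-4711-5p. CDH1 thus remained the more abundant cadherin in treated cells, at 12.7 and 11.4 times the FPKM of CDH2.

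**Figure D4:**
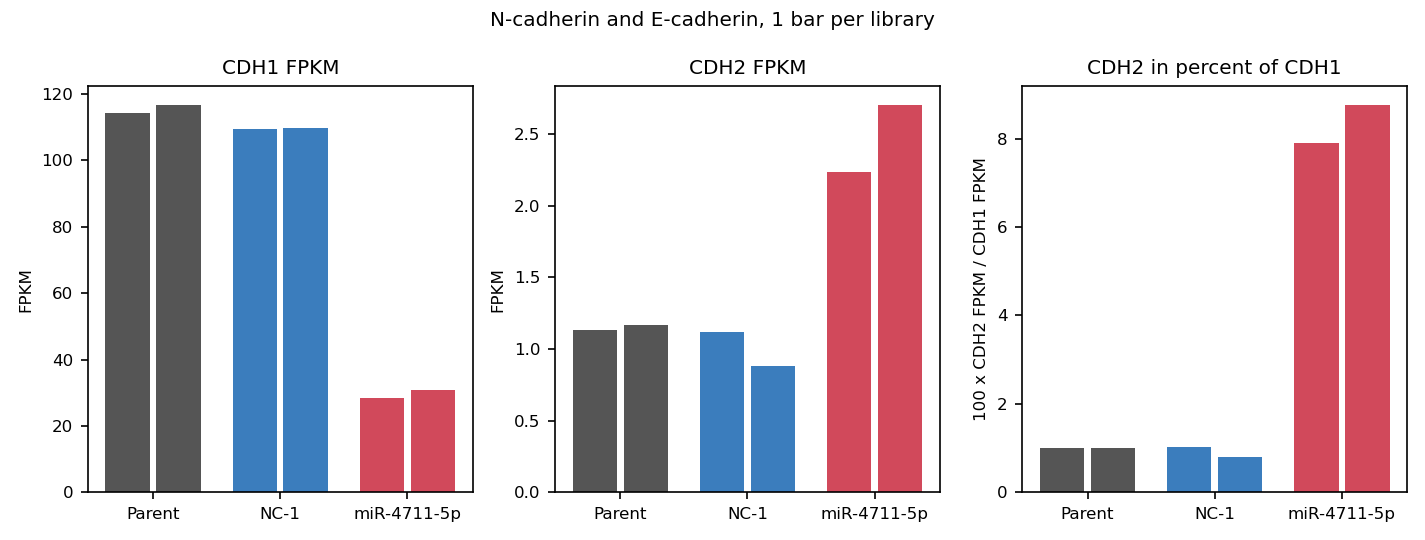
FPKM of CDH1 (left) and CDH2 (middle) and CDH2 in percent of CDH1 (right), 1 bar per library, axes from 0. CDH1 is lower and CDH2 higher in both miR-4711-5p libraries, and the percentage is 7.89 and 8.75 there against at most 1.02 in the controls.

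Related genes were taken from 4 lists, with the counts of limma calls. Beside these counts, 18.7% of all genes tested were higher and 24.7% lower than in Parent, and 18.4% and 21.2% than in NC-1. Of 12 tested of 24 other mesenchymal genes, 3 were higher and 3 lower than in Parent, and 0 higher and 5 lower than in NC-1, with 6 and 7 not called. COL5A1, among those higher than in Parent, had means of 0.909 FPKM in Parent, 1.07 in NC-1 and 1.69 with miR-4711-5p. Its Parent mean was under the filter of 1 FPKM, which it passed with the treated libraries included. On equal sums of FPKM the counts against Parent were 5 higher and 3 lower, and those against NC-1 were 1 higher and 4 lower. Between NC-1 and Parent 5 of the 12 were higher in NC-1 and 0 lower, against 12.1% and 15.1% of all genes. The median log2 fold change of the 12 was 0.16 against Parent, -0.24 against NC-1 and 0.30 for NC-1 against Parent, where all genes had -0.01, 0.0038 and -0.01. Of the endothelial markers CDH5 was likewise highest in NC-1, while the other 5 summed to no more there than in the higher Parent library.

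Lower than in both controls were ITGA5, S100A4 and CDH11. ITGA5, the fibronectin receptor subunit, was at 45.4 and 42.5 FPKM in Parent, 81.8 and 85.2 in NC-1, and 24.0 and 23.5 with miR-4711-5p. It fell by 0.86 against Parent (limma adjusted p = 2.69e-05) and its change against NC-1 was -1.77 (adjusted p = 3.42e-06), and NC-1 was above Parent by 0.91 (adjusted p = 0.000277). S100A4, a calcium-binding protein linked to motility, had means of 21.2, 21.2 and 13.8 FPKM in Parent, NC-1 and miR-4711-5p. CDH11, a further mesenchymal cadherin, had 4.19, 3.69 and 2.93 FPKM, and its call against NC-1 (-0.26, adjusted p = 0.0391) was lost without any 1 of the 4 libraries compared and on equal sums of FPKM.

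Among 8 tested of 15 other EMT transcription factors and their inhibitors, 3 showed higher and 1 lower expression than Parent, and 4 higher and 2 lower expression than NC-1. On equal sums of FPKM the counts against Parent were 4 higher and 1 lower. The share called was 50% against Parent and 75% against NC-1, beside 43.4% and 39.6% of all genes. SOX9, a progenitor factor of the pancreatic duct, was at 6.40 and 6.57 FPKM in Parent, 7.62 and 7.78 in NC-1, and 15.3 and 13.0 with miR-4711-5p. It rose by 1.01 against Parent (limma adjusted p = 9.40e-05) and by 0.80 against NC-1 (adjusted p = 0.000327). SOX4, which is also linked to EMT, had means of 13.1, 15.2 and 22.5 FPKM in the 3 groups. The ID proteins bind basic helix-loop-helix factors and keep them from DNA. ID1 fell from 217 and 200 FPKM in Parent and 178 and 197 in NC-1 to 73.4 and 83.5 (log2 fold change -1.40 against Parent, adjusted p = 2.10e-05), whereas ID3 rose by 0.54 against Parent and 0.60 against NC-1.

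All 14 corepressors of Snail and ZEB factors were tested, with 2 higher and 5 lower than in Parent (4 and 3 on equal sums of FPKM, so the balance of directions turned with the scale), and 3 higher and 3 lower than in NC-1. Between NC-1 and Parent 5 of 14 were lower and 0 higher (2 and 0 on equal sums of FPKM), beside 15.1% and 12.1% of all genes. RCOR1 (CoREST), a scaffold of the LSD1 demethylase complex, was at 22.0 and 22.4 FPKM in Parent, 22.5 and 21.4 in NC-1, and 8.95 and 8.82 with miR-4711-5p, a decrease of -1.23 against Parent (limma adjusted p = 6.75e-06). CTBP2, the partner of ZEB factors, fell by 0.98 against Parent and 0.75 against NC-1, with means of 49.0, 41.4 and 24.3 FPKM. AJUBA, a LIM protein that binds Snail factors, fell by 0.58 and 0.27, and NC-1 was below Parent for both CTBP2 (-0.24, adjusted p = 0.0118) and AJUBA (-0.31, adjusted p = 0.00534). SMARCA4, the ATPase of a chromatin remodeling complex, was higher by 0.19 against Parent (adjusted p = 0.0352) and by 0.39 against NC-1, and the former call was lost without the second Parent library (adjusted p = 0.148), the first miR-4711-5p library (adjusted p = 0.185) or the second (adjusted p = 0.0779).

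Epithelial genes moved in both directions. Of 23 tested of 24 other epithelial regulators and genes, 7 were higher and 6 lower than in Parent (9 and 5 on equal sums of FPKM), and 6 higher and 7 lower than in NC-1. The share called was 56.5% in each comparison, beside 43.4% of all genes against Parent and 39.6% against NC-1. Next to CDH1 (-1.93 against Parent, limma adjusted p = 2.81e-06), the epithelial transcription factors OVOL2 (means of 4.23, 4.68 and 2.18 FPKM), EHF (69.6, 62.4 and 43.3 FPKM) and ELF3 (37.2, 30.5 and 24.4 FPKM) were lower than in both controls. The call of ELF3 against NC-1 (-0.31, adjusted p = 0.0120) was lost without the second NC-1 library (adjusted p = 0.0645) or the first miR-4711-5p library (adjusted p = 0.0838). In the other direction, the tight junction gene CLDN4 rose from 120 and 110 FPKM in Parent and 138 and 140 in NC-1 to 192 and 189 (0.72 against Parent, adjusted p = 5.04e-05). RBM47, an RNA-binding protein known to restrain EMT, had means of 12.3, 9.05 and 16.3 FPKM and rose by 0.37 and 0.78 (adjusted p = 0.00385 and 0.000163). PRSS8, a membrane serine protease, and CRB3, a polarity gene, were also higher than in both controls, by 0.45 and 0.36 against Parent and 0.20 and 0.40 against NC-1. Both calls against NC-1 were lost without the first NC-1 library or either miR-4711-5p library (adjusted p between 0.0727 and 0.133), and that of CRB3 against Parent without any 1 of the 4 libraries compared (adjusted p between 0.0681 and 0.152).

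**Figure D5:**
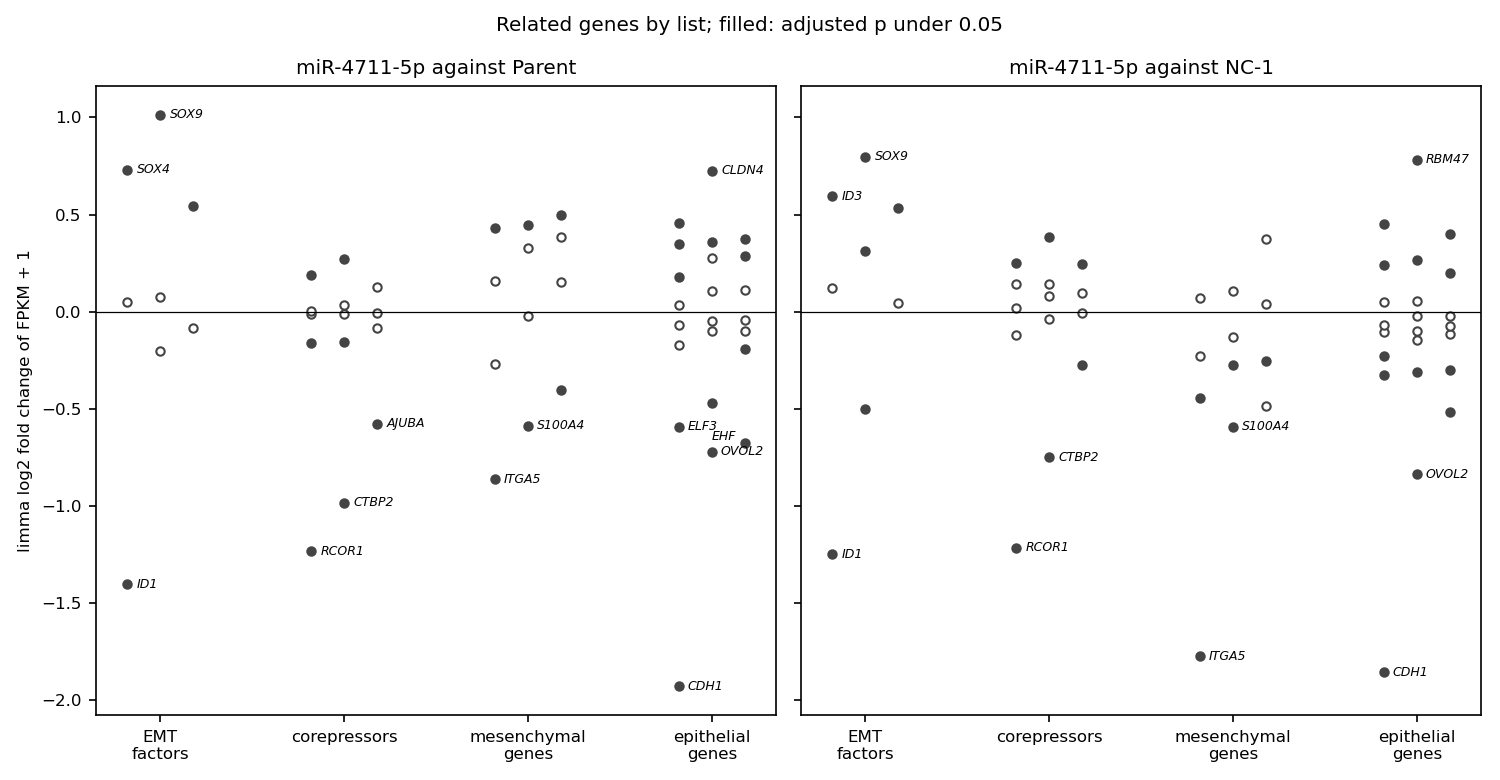
Limma log2 fold change of FPKM + 1 (vertical axis) of the tested genes of 4 related lists (horizontal axis) against Parent and against NC-1, each point 1 gene, filled where the adjusted p was under 0.05. Within each list filled points lie above and below 0 against Parent, with CDH1 (-1.93), ID1 (-1.40) and RCOR1 (-1.23) lowest and SOX9 (1.01) highest.

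Several of the genes that were lower held sites for miR-4711-5p in their longest 3′ UTR, and 3 of them are shown with the site in capitals (hg19, plus strand for RCOR1 and CDH1, minus strand for CTBP2).
RCOR1, chr14:103193399-103193406: tgccaagcatcCTGATGCAactcacatttc
CTBP2, chr10:126673591-126673597: tcattacagatCTGATGCcttggtcttct
CDH1, chr16:68868482-68868489: ataggagttctCTGATGCAgaaattattgg
Of the related genes lower than in both controls, 8 of 12 held a site, and of those higher, 0 of 9. A site was also held by tested related genes outside these sets. SIN3A and GRHL3 were called against neither control, and KLF8 and OVOL1 were lower than in NC-1 but not called against Parent. Among all genes tested that had a 3′ UTR, 31.6% of 1824 lower and 12.0% of 1144 higher than in both controls held one. Of the EMT genes themselves, ESRP1 was lower than in both controls and held a site, and CDH2 and FN1 were higher and held none. GRHL2 also held a site and was called only against NC-1, and ZEB2, with a site, was below the filter. These are descriptions without a test, and 3′ UTR length was not taken into account.

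Lastly, the genes with the most similar pattern were found for each tested gene, by the Euclidean distance between the 6 log2(FPKM + 1) values less their Parent mean, among 6647 or 6648 other genes averaging 10 FPKM or more. Nearest to ESRP1 were SCD (distance 0.0735) and ACSS2 (0.103). Nearest to CDH2 were BST2 (0.214) and HYI (0.216), and to FN1 ENTPD6 (0.130) and DAPK3 (0.149). Nearest to VIM were HK2 (0.210) and NAE1 (0.212). SNAI2 lay closest to NDFIP2 (0.0511) and LPCAT2 (0.0608), and GRHL2 to KPNA6 (0.0636) and ZZZ3 (0.0699). The 6 libraries are the same for all genes, so a short distance is a description of these libraries.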

How the data were processed

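Total RNA of the 6 libraries had been made into poly(A)-selected, strand-specific libraries and sequenced from 1 end. The authors mapped the reads to hg19 and computed FPKM with Cuffnorm. The submitters' processing notes name TopHat2 2.1.1, Bowtie2 2.3.5.1, SAMtools 1.2, Cufflinks 2.2.1 and Cuffdiff, and the versions in the methods of the study differ for some of these. The gene annotation, strand setting and normalization option are not given in the sources used here. The deposited values are FPKM per gene symbol, normalized for exon length and library size, and not counts. Reads of genes with near-identical copies may be split by this counting, and overlapping genes cannot be told apart.

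From these values, log2(FPKM + 1) of 12040 genes (those averaging 1 FPKM or more) were fitted with limma 3.58.1 in R 4.3.3 (all 6 libraries, eBayes with trend, 3 residual and 4.15 prior degrees of freedom, two-sided, Benjamini-Hochberg at 0.05). An exact permutation test of 2 against 2 libraries cannot go below p = 0.333. Genes below the filter had no test, and a fit without filter is given for them. The counted background of calls covers all 12040 genes. On simulated data with 200 changed genes among 12040, read for miR-4711-5p against Parent, the fit recovered 83.1% of log2 changes of 0.8 and 41.6% of those of 0.4, and 2.93% of calls were false. The simulation changed far fewer genes than were called here. It drew independent noise per gene and set no difference between NC-1 and Parent. These shares therefore do not carry over to the calls in this report. Genes were matched to GENCODE transcripts lifted to GRCh37, the build of hg19, by symbol (10597), by RefSeq synonym (589) or not at all (854).

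The 10 genes, the related lists and the tests were chosen with earlier results of these data known. Genes named from a list passed the threshold against both controls in the same direction (at most the 4 strongest each way). ESRP2, GRHL1 and GRHL3 were named in addition as paralogs, after their values were seen. COL5A1 was added for its level near the filter, and SIN3A, KLF8 and OVOL1 as further genes with a site, also after their values were seen. Alternatives were another library scale, pseudocount, filters, variance trend, samples in the fit, a replicate block, and leaving out each library. The rows MIR200A, MIR200B, MIR200C and MIR4711 were at 0 in all libraries, and mRNA libraries do not capture mature microRNAs. In these bulk libraries fewer cells of a type and less RNA per cell cannot be told apart.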

Additional observations from a re-analysis of the deposited data

How the results depend on the processing

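The calls of FN1, CDH2 and ESRP1 against both controls kept their direction and side of the threshold under all alternatives run (11 for FN1 and CDH2, which a filter of 5 FPKM removes, and 12 for ESRP1). Leaving out 1 library at a time gave 3246 to 4067 called genes for miR-4711-5p against Parent (5230 with all, 3246 without the first miR-4711-5p library), 2887 to 3749 against NC-1 (4763 with all, 2887 and 3017 without the first and second miR-4711-5p library) and 1457 to 2240 for NC-1 against Parent (3279 with all, 1457 without the first Parent library, 1680 and 2133 without the first and second NC-1 library). Without a filter, 2165 genes were called between NC-1 and Parent. Against NC-1, leave-one-out values ranged from -0.29 to -0.18 for SNAI2, from -0.26 to -0.16 for GRHL2 and from 0.33 to 0.70 for VIM, with the lost calls named in the report. VIM between NC-1 and Parent ranged from -0.61 to -0.24, and its value of -0.42 lost its call without a filter (adjusted p = 0.0916), without the variance trend (0.0547) and with only the 2 groups compared (0.0540). The cause was not tested.

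The same numbers in different groups did not pair the libraries (correlations of 0.061, 0.00301 and -0.00892 of their deviations), and a fit with the replicate number as a block called 4983, 4564 and 2864 genes and changed no call of the 6 EMT genes. Median-of-ratios factors computed from the FPKM were 1.006 to 1.007 in all libraries. Setting the libraries to equal sums of FPKM, an alternative chosen after seeing the data, moved the median of all genes by 0.12 on the log2 scale against Parent. The split of calls changed from 2255 higher and 2975 lower to 4014 and 1775 against Parent, from 2214 and 2549 to 2925 and 2083 against NC-1, and from 1456 and 1823 to 2325 and 1000 for NC-1 against Parent. On that scale SNAI2 against NC-1 was -0.18 and VIM between NC-1 and Parent -0.34, both without a call. With a pseudocount of 0.1 the differences of the untested genes from Parent were 0.92 for ZEB1, 0.38 for ZEB2 and 1.0 for SNAI1, so the size of these differences depends on it. A search of any annotated 3′ UTR also gave 3 genes with a site. With 2 libraries a group and no read counts, the counting error of genes under 1 FPKM is unknown.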
